A study of Camellia sinensis with 9 samples.

Results

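In the tea plant, Camellia sinensis, 6 reference transcripts kept their level within 1.6-fold across root, flower and leaf. They were chosen from the measured values themselves: a transcript that matches an annotated one, at a locus with no other such match, with at least 20 FPKM in each of 9 libraries and a largest value at most 1.6 times the smallest. FPKM is the number of fragments scaled by transcript length and by library. The rule was met by 6 of the 711 transcripts that passed its minimum level (0.844%), out of 26178 single reference transcripts and 109879 assembled transcripts in all. Roots, flowers and leaves of untreated plants gave 3 libraries each, made from total RNA after removal of ribosomal RNA. The labels name no cultivar, age or growth stage and do not say whether libraries of an organ came from separate plants, so the spread between them, and any p-value from it, may be technical. Identifiers carry no gene description, so the organs were not checked against markers.

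A reference gene is a gene whose transcript is taken to be alike in all samples of a study, so that other transcripts can be expressed relative to it in quantitative PCR. Long-used plant reference genes encode parts of the basic machinery of the cell, such as actin, ubiquitin, glyceraldehyde-3-phosphate dehydrogenase and translation elongation factor 1-alpha. Genes for a regulatory subunit of protein phosphatase 2A and for SAND and TIP41-like proteins are often used as well. Whether any of the 6 transcripts encodes such a protein was not determined: no identifier of the whole series, these 6 included, matched an entry of RefSeq's table of tea genes (assembly ASM5576180v1), so each is called by its identifier and no function is given.

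Library names follow the sample titles. Root has libraries 13, 23 and 33, flower has 1, 2 and 45, and leaf has 1 and 41. The remaining leaf column has a number that no leaf title has and is called the unnumbered leaf library. Leaf 41 and flower 2 stood apart within their organs. Over 55806 transcripts, Pearson's r of log2(FPKM + 1) was 0.76 and 0.77 between leaf 41 and the other leaf libraries, which reached 0.95 with each other, and 0.83 between flower 2 and each other flower library, which reached 0.93. With root libraries, leaf 41 had r of 0.57 to 0.64 and the other leaf libraries 0.44 to 0.48. The sum of all FPKM was lowest in leaf 1, at 623826, and highest in flower 1, at 1250929. For a transcript of 1000 nt, 20 FPKM stood for 279.6 fragments in root 23 and 519 in leaf 1, the lowest and highest of the libraries, which gives a counting error of 5.98% and 4.39%. The spliced lengths of the members are not in the table, so their own fragment numbers are not given.

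The transcript with the narrowest range was CSA026902.1, at locus MSTRG.3965 (positions 665572 to 670629, plus strand; the table names no scaffold). It stood at 22.8, 24.3 and 27.0 FPKM in root 13, 23 and 33, at 26.7, 28.5 and 33.4 FPKM in flower 1, 2 and 45, and at 27.7, 29.2 and 25.5 FPKM in leaf 1, the unnumbered leaf library and leaf 41. The largest value was 1.47 times the smallest. Flower had the highest mean, 29.6 ± 3.47 FPKM, and root the lowest, 24.7 ± 2.13 (SD, n = 3), with ranges that overlapped. The high end rested on flower 45: without that library the ratio was 1.28.

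The second, CSA001186.1 at MSTRG.50700 (positions 112571 to 118500, plus strand), stood at 38.1, 27.8 and 35.6 FPKM in root, at 25.5, 29.1 and 27.3 in flower, and at 25.2, 33.1 and 26.1 in leaf, with libraries in the same order as above. Its ratio was 1.51. Root 13 and root 33 lay above every flower and leaf library, and root 23 lay among them. Mean FPKM was 33.8 ± 5.35 for root, 27.3 ± 1.81 for flower and 28.2 ± 4.32 for leaf (SD, n = 3). In bulk tissue, fewer cells with a transcript and less of it per cell cannot be told apart, for these and all levels below.

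CSA033723.1 at MSTRG.44406 (positions 88991 to 100021, plus strand) had the highest mean of the 6, 56.3 FPKM over all libraries, and the longest span, 11031 nt. Its level was 60.2, 68.3 and 55.7 FPKM in root, 62.7, 44.8 and 52.0 in flower, and 55.6, 57.3 and 49.9 in leaf. Both ends of its 1.52-fold range were single libraries, flower 2 at the low end and root 23 at the high end, and the 3 organs overlapped.

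For CSA025651.1 at MSTRG.25517 (positions 399964 to 403894, plus strand), the values were 44.99, 51.4 and 45.5 FPKM in root, 44.4, 47.4 and 39.8 in flower, and 33.05, 38.8 and 33.5 in leaf. In this member all leaf libraries lay below all root and all flower libraries. Among all transcripts, root and leaf did not overlap for 49.2% and flower and leaf for 46.2%, in either direction. The ratio was 1.56, and within each organ it was 1.14 in root, 1.19 in flower and 1.18 in leaf. Its organ means, 47.3 ± 3.56, 43.9 ± 3.86 and 35.1 ± 3.24 FPKM (SD, n = 3), differed 1.35-fold, more than those of the other members, which differed 1.12-fold to 1.24-fold.

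CSA015358.1 at MSTRG.21687 (positions 284072 to 286032, minus strand) had the shortest span, 1961 nt. It stood at 29.4, 46.1 and 44.1 FPKM in root, at 35.1, 40.5 and 37.6 in flower, and at 35.7, 33.7 and 37.1 in leaf. Both its lowest and its highest library were root libraries, so the whole 1.57-fold range lay within 1 organ. Its organ means were the closest of any member, from 35.5 ± 1.69 FPKM in leaf to 39.9 ± 9.12 in root (SD, n = 3).

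CSA000547.1 at MSTRG.50000 (positions 432252 to 438540, minus strand) sat at the edge of the rule, with a ratio of 1.599. Its values were 55.2, 67.6 and 52.7 FPKM in root, 42.8, 58.0 and 42.6 in flower, and 49.3, 57.6 and 42.2 in leaf. The spread within flower (1.36-fold) and within leaf (1.36-fold) was wider than the 1.22-fold spread of the organ means.

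**Figure D1:**
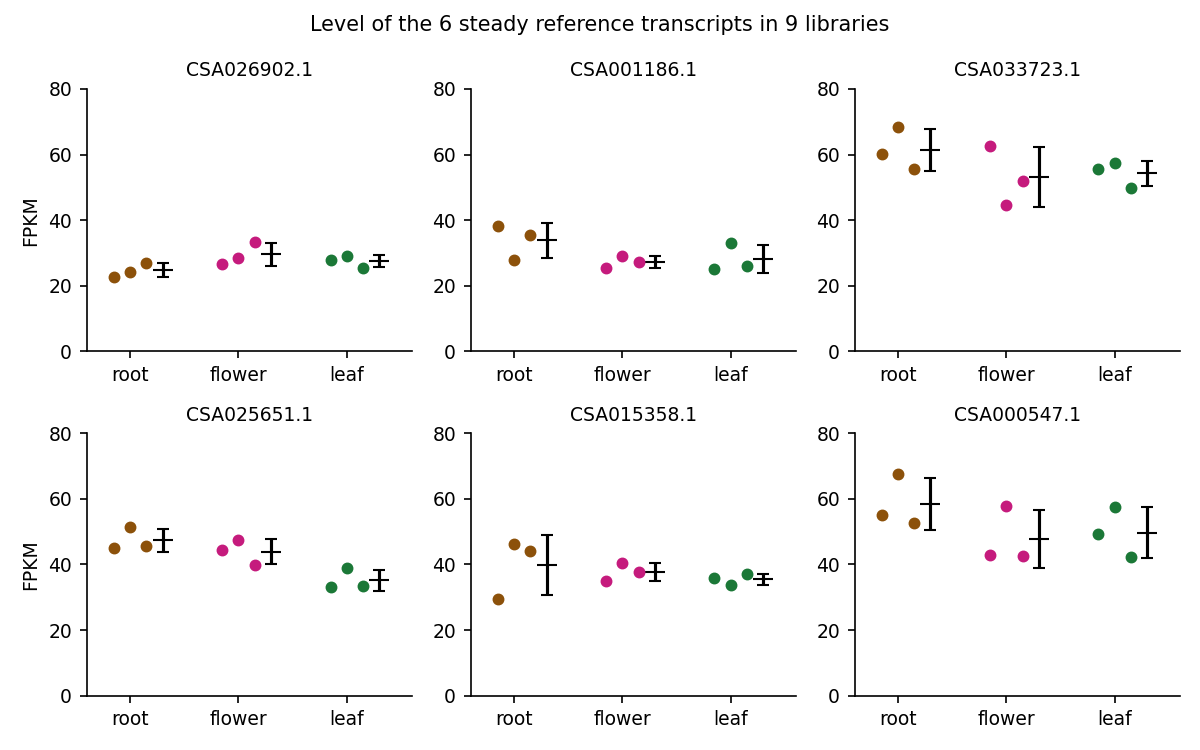
FPKM of each of the 6 transcripts (vertical axis) in root, flower and leaf; each point is a library, and the bar beside each organ gives its mean and SD (n = 3). Values lie between 22.8 and 68.3 FPKM, and the organs overlap in every panel except leaf against root and flower for CSA025651.1.

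Root had the highest organ mean for 5 of them and flower for CSA026902.1, and leaf was highest for 0. Root 23 was the highest library for 4 members. These counts hold for the values as deposited, and no share over other transcripts is given beside them. In leaf 41 the value lay below the member's own mean over libraries (on the log2 scale) for all 6. Relative to those means, the median deviation was 0.30 in root 23 and -0.17 in leaf 41 (log2).

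Differences between organs were also taken from limma, fitted on log2(FPKM + 1) over all 55806 transcripts with at least 1 FPKM in at least 3 libraries. Because the rule kept transcripts with small differences, these are a description and support nothing. The F test over the 3 organs called 0 of 6 members at an adjusted p under 0.05 (limma), and 0 at an unadjusted p under 0.05, where 56.8% of all transcripts were called. The difference largest in size was that of root minus leaf for CSA025651.1, 0.42 ± 0.22 (SE) on the log2(FPKM + 1) scale. Root minus leaf had a median of 0.20 over the 6 members and -0.01 over all transcripts. The medians of flower minus leaf were 0.02 and -0.02, and those of flower minus root were -0.16 and 0. Libraries of root and leaf failed to overlap for 1 of 6 members, where 49.2% of all transcripts did not overlap. The same member was the 1 without overlap between flower and leaf (46.2% of all transcripts), and 0 members were without overlap between flower and root (56.1%).

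Steadiness was counted both between organ means and within organs, and which of these made it rarer was not tested. Over the 711 transcripts with at least 20 FPKM everywhere, the median ratio was 4.38, the quartiles were 2.96 and 7.30, and 44 (6.19%) stayed within 2-fold. Organ means lay within 1.6-fold for 108 transcripts (15.2%), which is many more than 6. Libraries of the same organ lay within 1.6-fold in all 3 organs for 136 (19.1%). The counts of 108 and 136 rest on unlike conditions, a ratio of averaged means and a limit within each organ. The median ratio of organ means was 2.61, and the median ratio within an organ was widest in leaf, at 1.73. The limit was kept by 503 transcripts within root, 392 within flower, where flower 2 stood apart, and 288 within leaf, where leaf 41 stood apart. Both conditions held for 29 transcripts, and 6 of these met the rule over all 9 libraries together.

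**Figure D2:**
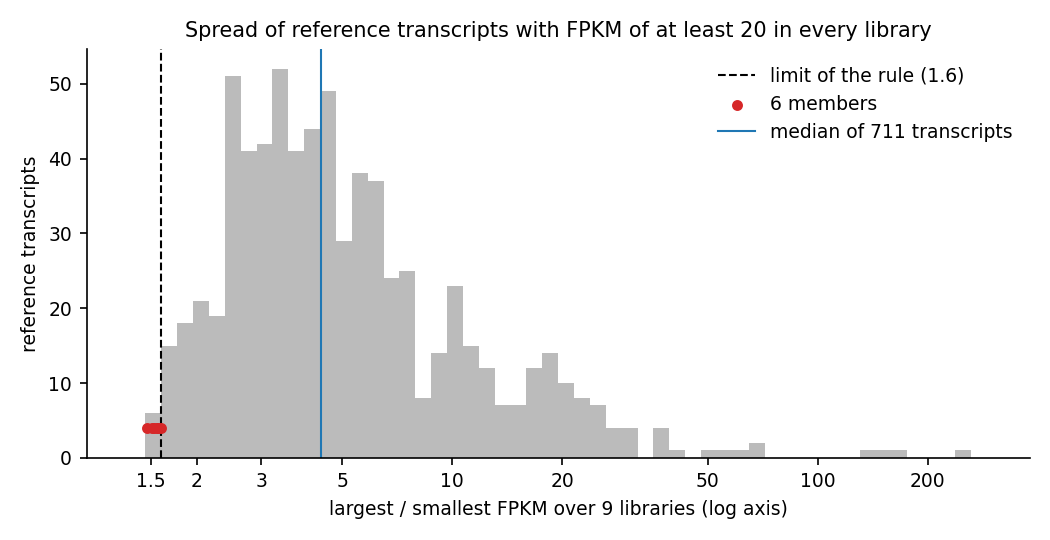
Number of reference transcripts (vertical axis) by the ratio of largest to smallest FPKM over 9 libraries (log axis), for the 711 transcripts with at least 20 FPKM in every library. The 6 members, the red points, lie to the left of the dashed limit of 1.6, and the blue line is the median of 4.38.

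The means of the members ran from 27.2 to 56.3 FPKM, and 547 of the 711 transcripts (76.9%) had a mean above the highest of them. With the 711 split by mean level into 3 groups of 237, the median ratio of the low group (26.2 to 70.4 FPKM) was 3.12, and 33 of its transcripts stayed within 2-fold. It was 4.90 in the middle group, with 7 within 2-fold, and 7.44 in the high group, with 4 within 2-fold. Spearman's rho between ratio and mean was 0.58 across the 711 transcripts, which share libraries and are not independent. These values are partly fixed by the selection and are a description: with at least 20 FPKM required in every library, a low mean limits the ratio that is possible, and a wide ratio itself raises the mean. All members fell in the low group. The narrowest ratio was 1.61 in the middle group and 1.71 in the high group. Features that the rule did not use were mixed: 4 of 6 lay on the plus strand (49.8% of the 711), 3 of 6 were the only transcript at their locus (64.6%), and the median span was 5494 nt (3639 nt).

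The limit of 1.6 fell inside a continuous distribution. Just outside it were CSA022744.1, with a ratio of 1.61 and 105.9 to 170.2 FPKM, CSA035006.1, with 1.62 and 21.9 to 35.5 FPKM, and CSA027368.1, with 1.62 and 21.2 to 34.5 FPKM. CSA022744.1 had a higher level than any member, but it met the rule under none of the scalings described below. Its flower libraries lay between 142.4 and 143.9 FPKM, above all its leaf libraries (105.9 to 140.0 FPKM). Flower and leaf did not overlap for 46.2% of all transcripts, in either direction. Below the minimum level, CSA020882.1 (15.6 to 24.6 FPKM, ratio 1.58) and CSA006773.1 (15.5 to 22.4 FPKM, ratio 1.45) met the other conditions. Among members the lowest minima were 22.8 FPKM for CSA026902.1 and 25.2 for CSA001186.1.

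The next question was whether the 6 stay steady when each library is scaled to an equal sum of FPKM. Leaf libraries had the lowest sums, so this scaling multiplied leaf values by 1.15 to 1.42, root values by 0.812 to 1.02 and flower values by 0.706 to 0.967. A single member, CSA025651.1, still met the rule. Its ratio fell to 1.49, with flower 1 lowest at 31.3 and leaf 1 highest at 46.8 on this scale. For the others the ratio rose: to 2.31 for CSA000547.1, 2.16 for CSA001186.1, 2.08 for CSA026902.1, 2.04 for CSA015358.1 and 1.92 for CSA033723.1. Leaf then had the highest organ mean for all 6 members, in place of 0 under the authors' scaling. The shift was not particular to them: the median of root minus leaf over all transcripts moved from -0.01 to -0.28, and that of flower minus leaf from -0.02 to -0.35 (log2). CSA033723.1, for example, had means of 56.9 for root, 45.2 for flower and 68.5 for leaf on this scale.

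Other scalings gave different answers. With sums over reference transcripts made equal, 0 of 6 members met the rule and the ratios ran from 1.66 to 2.44. Scaling by the median ratio to the geometric mean of the libraries, which changed values least (factors of 0.946 to 1.07), kept 3 members: CSA026902.1 at 1.34, CSA033723.1 and CSA015358.1 each at 1.54. Equal upper quartiles kept CSA025651.1 alone, at 1.31, and so did quantile normalization, at 1.54. No member met the rule under every scaling, and the geometric mean of the 6, which ranged 1.27-fold over the libraries as deposited, ranged 1.93-fold with equal sums, from 26.6 in flower 1 to 51.3 in leaf 1.

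**Figure D3:**
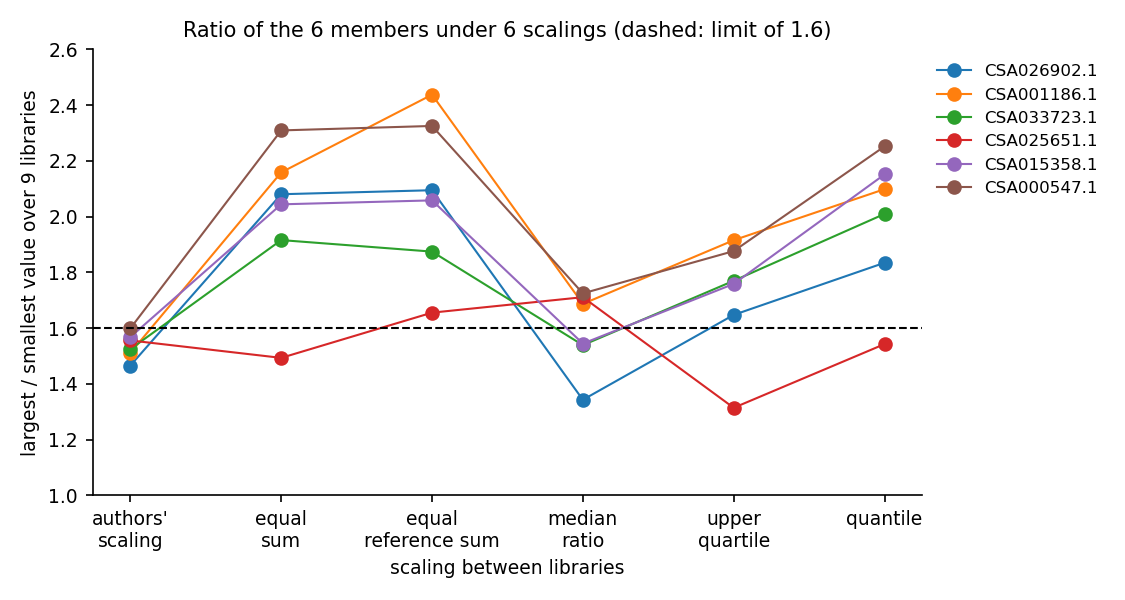
Ratio of the largest to the smallest value over 9 libraries (vertical axis) for each member under 6 scalings between libraries; lines join the values of 1 transcript. CSA025651.1 lies below the dashed limit of 1.6 under 4 scalings, while with equal sums the other 5 lie between 1.92 and 2.31.

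Applying the rule afresh under each scaling selected other transcripts. With equal sums 12 transcripts met it, and 1 of them was among the 6 (8.33% of the new set, 16.7% of the members). The numbers were 8 with equal reference sums, 3 with the median ratio, 13 with equal upper quartiles and 15 with quantile normalization. Over the 6 scalings 30 transcripts met the rule at least once. Of these, 15 did so under a single scaling, 4 did so under 4 scalings, and 0 did so under 5 or 6. The transcripts with 4, named here after their values were seen, were CSA025651.1, CSA009795.1, CSA013046.1 and CSA028965.1. The last 3 missed the rule as deposited, with ratios of 1.71, 2.41 and 1.99, and reached 1.39, 1.41 and 1.498 with equal sums.

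A ratio between 2 transcripts within a library does not change when the library is multiplied by 1 factor. Quantile normalization is not of that kind and can change it. For each of the 711 transcripts the SD over libraries of its log2 ratio to each of the other 710 was averaged, a measure that is low for a transcript that keeps in step with the rest. It uses the same values as the rule and is a description. CSA025651.1 ranked 5 of 711 with 0.790, CSA033723.1 ranked 14 with 0.802, CSA000547.1 ranked 50 with 0.829, CSA001186.1 ranked 65 with 0.835, CSA015358.1 ranked 67 with 0.836 and CSA026902.1 ranked 107 with 0.859. The median of the 711 was 1.01 and the lowest was 0.783, for CSA006320.1. The order by this measure therefore differed from the order by FPKM: the member with the narrowest FPKM range ranked last of the 6.

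**Figure D4:**
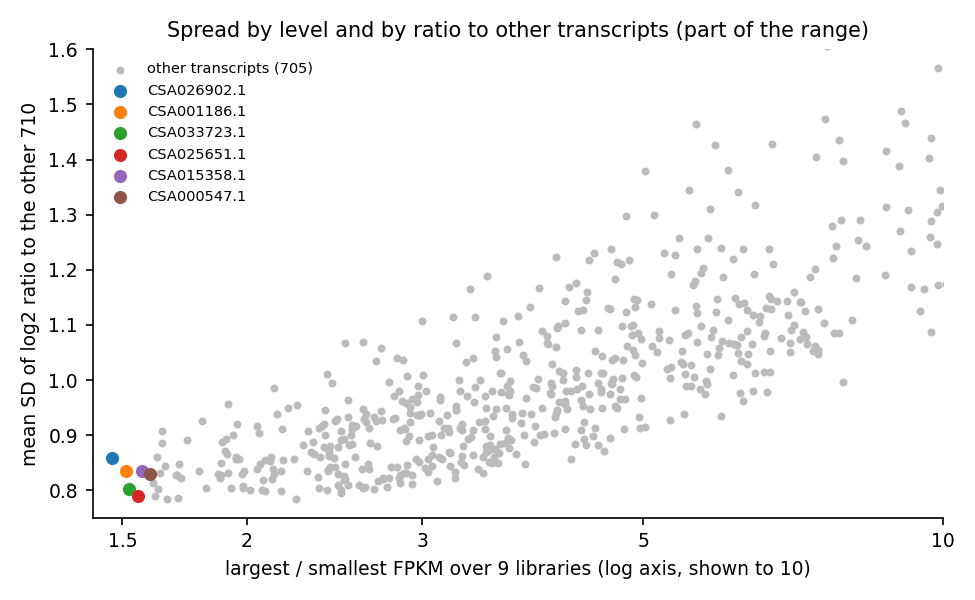
Mean SD of the log2 ratio to the other 710 transcripts (vertical axis) against the ratio of largest to smallest FPKM (log axis), 1 point per transcript, members in colour; 130 transcripts lie outside the range shown. Members lie at the left edge but spread from 0.790 to 0.859 in height, level with many transcripts of wider FPKM range.

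Among the 6 themselves, the 15 pairwise ratios had SDs of 0.20 to 0.33 on the log2 scale. All 6 were chosen to vary little, so low SDs are partly fixed by the selection. The lowest SD was that of the ratio of CSA025651.1 to CSA000547.1. The first stood at 0.815, 0.761 and 0.863 times the second in root, at 1.04, 0.818 and 0.933 times in flower, and at 0.670, 0.674 and 0.792 times in leaf. Leaf ratios lay at or below 0.792 and flower ratios at or above 0.818, while root ratios overlapped both. The gap lay between leaf 41 and flower 2, the libraries that stood apart. Whether this ratio differed between organs was not tested, and no share over other pairs was counted. Over libraries 3 of the 15 ratios stayed within 1.6-fold, the narrowest at 1.55-fold. The widest was that of CSA026902.1 to CSA000547.1, at 2.18-fold, from 0.360 in root 23 to 0.784 in flower 45.

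Other transcripts at the same loci were not used by the rule. Those tested had ratios of 28.7, 2.04 and 2.10, above the limit of 1.6. The ratios 2.04 and 2.10 lay below the median of 4.38 for the 711 transcripts, and 28.7 lay above it. Whether these other transcripts differed from the members beside them was not tested. The loci of CSA001186.1, CSA015358.1 and CSA000547.1 hold 4 further assembled transcripts, and the counting divides shared reads between isoforms by estimation, so their values are not independent of the members'. At MSTRG.50700, the splice variant MSTRG.50700.2 (positions 112575 to 118469) stood at 10.6, 7.005 and 6.90 FPKM in root, at 0.404, 7.22 and 0.409 in flower, and at 0.369, 1.03 and 5.33 in leaf. Root was high in each library, while flower was high in flower 2 alone and leaf in leaf 41 alone, the libraries that stood apart from their organs. The difference was 1.79 ± 0.76 (SE) on the log2(FPKM + 1) scale for root minus leaf (limma adjusted p = 0.101) and -1.83 ± 0.76 for flower minus root (limma adjusted p = 0.0797). Without leaf 41 they were 2.44 (limma adjusted p = 0.032) and -1.83 (limma adjusted p = 0.0486), and without flower 2 they were 1.79 (limma adjusted p = 0.0296) and -2.68 (limma adjusted p = 0.00847).

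At MSTRG.21687, the longer transcript MSTRG.21687.1 extends 514 nt before and 1030 nt beyond the member along the scaffold and was as abundant. It stood at 29.1, 38.3 and 35.2 FPKM in root, at 59.4, 40.8 and 44.8 in flower, and at 45.4, 40.0 and 36.8 in leaf. All flower libraries lay above all root libraries, as for 56.1% of all transcripts in either direction, and the difference of 0.48 ± 0.25 (SE, log2(FPKM + 1)) did not pass the test (limma adjusted p = 0.148). The member held between 37.1% and 55.6% of the FPKM of its locus.

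At MSTRG.50000, the splice variant MSTRG.50000.1 stood at 30.4, 39.5 and 34.0 FPKM in root, 20.6, 33.6 and 18.8 in flower, and 26.6, 26.7 and 26.2 in leaf. It was nearly level in leaf and varied most in flower, where flower 2 was the high library, as it was for the member. The other variant, MSTRG.50000.3, stayed at or below 0.148 FPKM and was not tested.

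A call of an organ difference for these transcripts needed a limma adjusted p under 0.05 and a difference of at least 1 on the log2(FPKM + 1) scale. Of the 3 tested, 0 were called for root minus leaf, where 30.9% of all transcripts were. For flower minus leaf 0 were called (31.3% of all) and for flower minus root 0 (40.8% of all). At an unadjusted p under 0.05 (limma) the counts were 1, 0 and 1. Summed over its transcripts, each of the 3 loci left the limit that its reference transcript kept: the ratio was 1.90 for MSTRG.50700, 1.61 for MSTRG.21687 and 1.74 for MSTRG.50000. With locus sums in place of single transcripts 17 loci met the rule, and 3 of them were members' loci, those with 1 transcript.

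Loci numbered next to a member's locus gave a view of the surroundings, with the caution that numbers do not always follow position and that scaffolds are not named. Of 12 such loci 8 were tested, and 4 were called in at least 1 of the 3 organ comparisons, beside 64.1% of all 36342 tested loci. The remaining 4 were too low to test.

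The closest was MSTRG.50701 (reference transcript CSA001188.1, positions 118519 to 126978, minus strand), which begins 18 nt past the end of CSA001186.1 on the opposite strand. It stood at 8.46, 14.96 and 16.1 FPKM in root, at 82.4, 120.4 and 77.5 in flower, and at 4.33, 3.24 and 1.13 in leaf. The organs of CSA001186.1 overlapped, which its selection for small differences favoured. At MSTRG.50701 no organ overlapped another. The locus was higher in flower than in leaf by 4.67 ± 0.39 (SE, log2(FPKM + 1); limma adjusted p = 3e-05) and than in root by 2.76 ± 0.39 (limma adjusted p = 0.00038). Root exceeded leaf by 1.91 ± 0.39 (limma adjusted p = 0.00404). The strand setting of the counting is not given, so reads near the shared end may not have been told apart.

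MSTRG.21686 (CSA015356.1, positions 277044 to 283099, plus strand) ends 458 nt before the locus of CSA015358.1. Its level was 305.5, 570.0 and 378.1 FPKM in root, 38.9, 40.4 and 33.7 in flower, and 21.8, 28.6 and 89.1 in leaf. Root lay above all other libraries, and leaf 41 stood above the other leaf libraries, as it did for MSTRG.50700.2. Root exceeded leaf by 3.36 ± 0.48 (SE, log2(FPKM + 1); limma adjusted p = 0.000589) and flower by 3.39, a flower minus root difference of -3.39 ± 0.48 (limma adjusted p = 0.000386). Without leaf 41, root minus leaf was 3.96 (limma adjusted p = 3.21e-05).

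On the other side of CSA015358.1 by number, MSTRG.21688 (CSA015359.1, positions 333547 to 337069, plus strand) stood at 586.2, 1149.1 and 839.2 FPKM in root, 566.9, 336.1 and 423.0 in flower, and 283.4, 358.2 and 286.4 in leaf. Root exceeded leaf by 1.42 ± 0.35 (SE; limma adjusted p = 0.0105). This call was lost without root 23 (1.19, limma adjusted p = 0.0521). It was also lost, on size, with equal sums (0.99, limma adjusted p = 0.0139) and with quantile normalization (0.70, limma adjusted p = 0.049). The intergenic MSTRG.49999, numbered next to CSA000547.1, was listed at 0 in all root and flower libraries and at 10.4, 12.8 and 1.03 FPKM in leaf 1, the unnumbered leaf library and leaf 41. It was called for leaf against both other organs, but was too low to test when any leaf library was left out.

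MSTRG.25516 (CSA025656.1, positions 383280 to 389083, minus strand), numbered next to CSA025651.1, was itself fairly level, at 57.5, 66.6 and 49.4 FPKM in root, 79.7, 75.1 and 52.7 in flower, and 75.6, 63.0 and 73.6 in leaf. The loci on either side of CSA033723.1 by number were low: MSTRG.44405 reached at most 3.88 FPKM and MSTRG.44407 at most 2.08 FPKM, in libraries where CSA033723.1 stood at 44.8 or more.

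**Figure D5:**
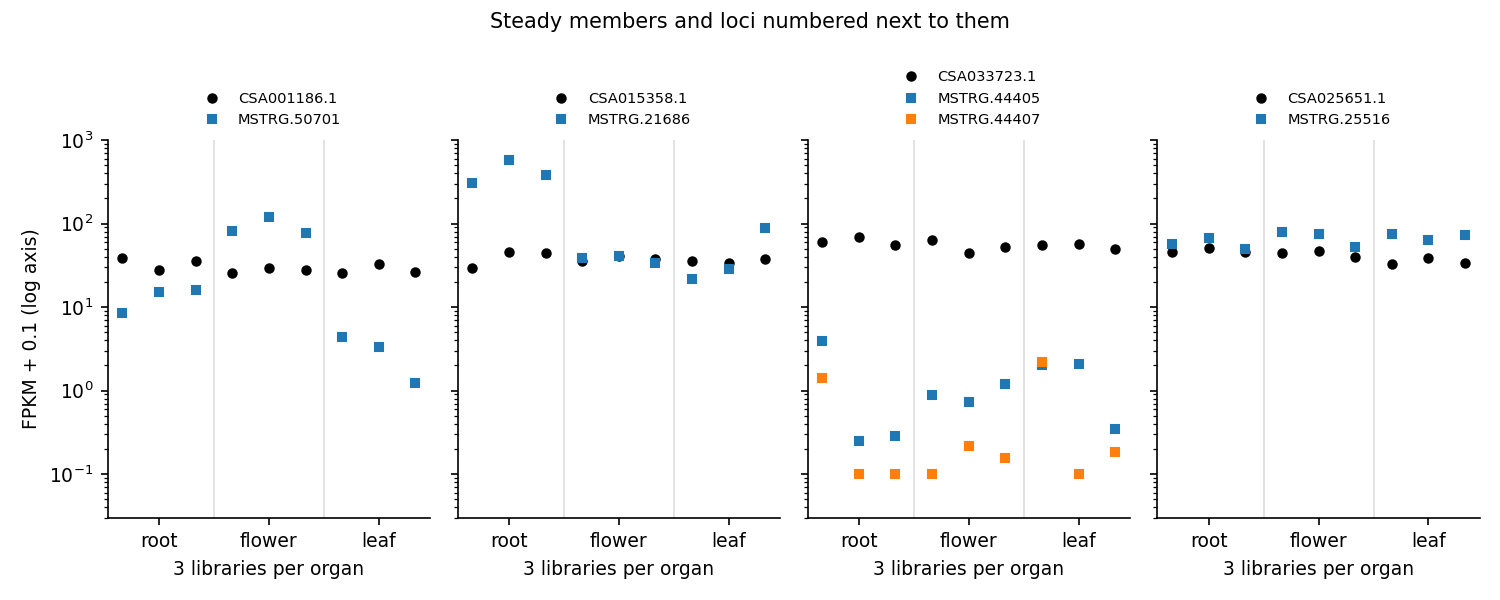
Level (FPKM + 0.1, log axis) in the 9 libraries, 3 per organ in the order root 13, 23, 33, flower 1, 2, 45, leaf 1, unnumbered and 41, of 4 members (black circles) and of the loci numbered next to them within 11 kb by position (squares, summed over transcripts). MSTRG.50701 is highest in flower and MSTRG.21686 in root, MSTRG.25516 stays between 49.4 and 79.7 FPKM, and both neighbours of CSA033723.1 stay at or below 3.88 FPKM.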

How the data were processed

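The samples are 3 RNA libraries each of root, flower and leaf. The authors deposited 1 table of FPKM values for 109879 assembled transcripts. HISAT2, StringTie and Cuffnorm were used, per the submitters' processing notes. Their versions and settings, the strandedness of counting and the build were not given in the sources used here. Other columns, per the file headers, give a locus, strand, start, end and class code for each transcript, where the code = marks a reference transcript. Columns were matched to samples by title. The leaf column numbered 23 matches no leaf title; it entered as a leaf library with no replicate number, and 0 other columns of samples were left over. No library pair shared more than 0.00110% of values above 0.

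The 6 members were found by the rule on the deposited FPKM. The members and all lists were chosen with earlier results of these data known. Libraries were rescaled to equal sums, equal sums of reference transcripts, the median ratio to the geometric mean, equal upper quartiles (of values of at least 1 FPKM) and by quantiles; each scaling factor was set so that the geometric mean over libraries is 1. Organ differences used limma 3.58.1 under R 4.3.3. Its input was log2(FPKM + 1), its variance prior followed the mean level, and it had 1 mean per organ, a spread shared by 9 libraries (6 residual degrees of freedom) and Benjamini-Hochberg adjustment over all transcripts (55806) or locus sums (36342) with at least 1 FPKM in at least 3 libraries. The log2(FPKM + 1) scale understates changes of low values. The fit was tested on simulated data.

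By rule, the text names members with the narrowest ratios, highest means or values nearest the limits (here all 6), 3 transcripts just above the ratio limit, 2 just under the minimum, and called transcripts at members' loci. None of the last was called; those given, and the neighbouring loci, were named after their values were seen. Alternatives were other limits, locus sums, scalings, pseudocounts, filters, array weights and leaving out each library. Fragments per FPKM were read from the steps of low values in 5479 unstranded single-transcript loci of 600 to 3000 nt, where 100% of the low values used lay within 0.05 of a whole number. A count test was not run, since fragment counts of spliced transcripts were not recovered. Python 3.11.15, pandas 2.3.3 and numpy 2.4.6 were used.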

Additional observations from a re-analysis of the deposited data

How the results depend on the processing

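The size of the set moved with most settings. The number of transcripts meeting the rule was 12 with equal sums, 3 with the median ratio, 13 with equal upper quartiles and 15 with quantile normalization. A ratio limit of 1.4 gave 0 and a limit of 2 gave 44, a minimum of 10 FPKM gave 15 and one of 50 FPKM gave 0, and locus sums gave 17. With equal reference sums it was 8, and with loci of several reference transcripts kept it was 6. Leaving out 1 library, which can only widen the set at this limit, gave 6 to 21, the highest without leaf 41; without root 23 it was 11, without flower 2 it was 14 and without the unnumbered leaf library it was 15. The number of members meeting the rule was 1 with equal sums, 0 with equal reference sums, 3 with the median ratio, 1 with equal upper quartiles and 1 with quantile normalization.

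Of the scalings, limma was rerun with equal sums, the median ratio and quantile normalization, and not with equal reference sums or upper quartiles. The count of members called by the F test was 1 with quantile normalization (CSA033723.1). It was 0 in the other fits, 0 to 0 with a library left out. In the main fit 56.8% of all transcripts were called. Shares over all transcripts or loci in the other fits are not given here, so the counts from those fits are a description. Of other transcripts at member loci, MSTRG.50700.2 was the 1 called for root minus leaf and the 1 for flower minus root with array weights; with a library left out these counts ran from 0 to 1, and for flower minus leaf from 0 to 0. Called neighbouring loci ran from 3 to 5, but the number tested changed as well. It was 4 of 8 in the main fit, where 64.1% of all loci were called. With a filter of 5 FPKM it was 3 of 5, with no filter 4 of 12 and with a pseudocount of 0.1 it was 5 of 8. Of 158 values of named differences 0 changed sign, 3 lost their call (all for MSTRG.21688) and 6 gained one (all for MSTRG.50700.2). Some of the 158 could not change sign: leaving out a library of the third organ, or changing the filter, left the size of a difference as it was. Apart from those of MSTRG.50700.2, the differences were named because the main fit called them. The 158 values leave out MSTRG.49999 where it was too low to test: with a filter of 5 FPKM, the median ratio, quantile normalization and without any 1 of the leaf libraries. The causes of these shifts were not tested. No paired analysis was possible because the leaf column numbered 23 matches no leaf title. The titles of flower and leaf share the numbers 1 and 2, but the columns that carry a sample's number pair at 1 alone, and root titles share no number with the others. Depth limits low values: at 1000 nt, 3 fragments stood for 0.116 to 0.215 FPKM, far below the members.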
